A study of Mus musculus with 2 samples.

Results

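The Notch1 ChIP-seq peaks around 9 mouse genes that encode homing and egress receptors of T cells were examined. The genes were the chemokine receptor genes Ccr9, Ccr7, Ccr4, Ccr10, Cxcr4 and Cxcr6, the selectin ligand gene Selplg, the sphingosine 1-phosphate receptor gene S1pr1 and Cd69. A peak was taken as theirs if it overlapped the gene body or lay within 50 kb of any annotated start site of the gene (GENCODE M21 on mouse build mm10). This gave 22 different peaks of the 5913 deposited, 5910 of them on nuclear chromosomes. The peaks came from 1 library, made with a rabbit monoclonal antibody to Notch1 (clone D1E11). Its chromatin came from primary thymic gamma delta T cells of C57BL/6 newborns, wild type in genotype and between postnatal days 0 and 3 of age. Both samples of the series, the Notch1 library and an input made without antibody, share that strain, genotype, age and tissue. The input is not analysed here, and the sources used here do not give the number of mice pooled. With 1 library there was no replicate and no test, and read depth is unknown, so each value below is a single measurement with no error. The stated purpose of the series was to find where the intracellular part of Notch1 (ICN1) binds in these cells.

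T cells move through the thymus and out of it along gradients that these receptors read. Chemokine receptors couple to inhibitory G proteins and steer cells toward the source of a ligand, selectin ligands slow cells on vessel walls, and S1PR1 draws mature cells toward the sphingosine 1-phosphate of blood and lymph. CD69 binds S1PR1 and takes it from the surface, which keeps recently activated cells in the tissue. In early T cell progenitors Ccr9 is known to be switched on by E proteins and held down by Notch signalling, and CCR7 is known to act downstream of Notch1 in T cell leukaemia. When Notch1 is cleaved, its intracellular part acts on DNA through the protein RBPJ, which recognises the core TGGGAA. A peak list holds no expression values, so the labelled cell type could not be checked by expression.

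All 9 genes had at least 1 peak under this rule, beside 31.7% of the 21938 protein-coding genes of the annotation. The genes were chosen with earlier results of these data known, so nothing is read from that contrast. Selplg had 9 peaks, Cd69 4, Ccr9, Cxcr6, Ccr7 and Cxcr4 2 each, and Ccr4, Ccr10 and S1pr1 1 each. These are 24 links between a gene and a peak, since Ccr9 and Cxcr6, neighbours on chromosome 9, share both of theirs. Within 5 kb of a start site the count fell to 3 of 9 genes, Selplg, Cd69 and Cxcr4, beside 8.81% of all genes. Within the gene body it was 5 of 9, beside 11.6%, with Ccr9 and Cxcr6 added. Ccr7, Ccr4, Ccr10 and S1pr1 had no peak nearer than 20 kb.

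**Figure D1:**
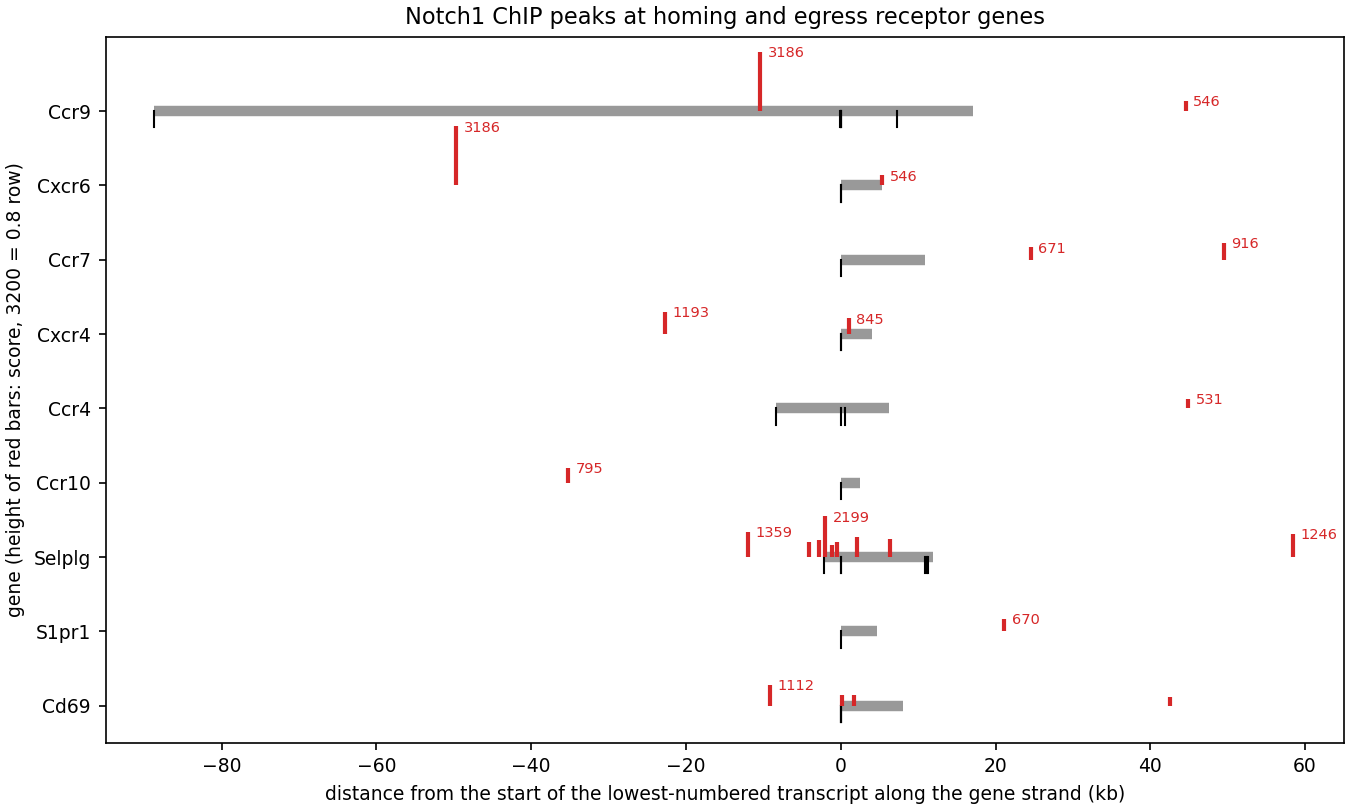
Peaks (red bars, height proportional to the deposited score, with scores printed for most) along each gene (grey bar), by distance in kb from the start of its lowest-numbered transcript, with other start sites as black ticks. The highest bar, at 3186, stands inside the long form of Ccr9 and is drawn again in the row of Cxcr6, while the Selplg row holds a run of 9 bars.

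How far a peak lies from a gene matters for such a list, because a window of 50 kb reaches other genes too. Of the 22 peaks, 18 had a start site of one of the 9 genes as their nearest protein-coding start, and 4 lay nearer to another gene. Those 4 were the only peak of Ccr10, the farther peak of Ccr7, and 2 outer peaks of Selplg. Accordingly 8 of the 9 genes, Ccr10 being the exception, were the nearest start of at least 1 peak, beside 14.3% of all protein-coding genes. By location, 8 peaks reached within 1 kb of a protein-coding start site and 4 overlapped an exon of a protein-coding gene. A further 3 lay in introns, and 7 overlapped no protein-coding gene and are called intergenic. For the Selplg peak of 1072 and the Cd69 peak of 550, the exon was only that of a transcript with a retained intron. Just inside the 50 kb limit were the farther Ccr7 peak at 49.3 kb and the Ccr9 peak seen from Cxcr6 at 49.2 kb. Just outside it were 2 peaks upstream of Cxcr4, at 52.4 kb with a score of 674 and at 54.3 kb with a score of 1123.

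Ccr9 encodes the receptor for CCL25, a chemokine of thymic epithelium and small intestine, and carried the highest score among the peaks of the 9 genes. Its peak on chromosome 9 from 123756298 to 123757229 was 932 bp wide and scored 3186, rank 2 of the 5910 nuclear peaks. The score is the authors' own value on a scale that no header states, and it serves here only to rank peaks within the list. In that list 36 peaks share a score of exactly 3100 and 4 lie above it, so the order among these 40 is less informative than membership. The peak lay 9.94 kb upstream of the nearest Ccr9 start site, at 123767169, and in an intron of the long coding transcript Ccr9-202, which starts at 123678439. RefSeq begins Ccr9 at 123767211, and by that annotation the peak lies upstream of the gene. No start site of another protein-coding gene was nearer. The start of Gm17020, a processed pseudogene, was 5274 bp away.

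The other 3 peaks above 3100 differed from it in sequence content. At rank 1 and rank 3 were peaks over Gm10717 on chromosome 9, in which 89.2% and 79.7% of all 32-base strings occur more than once in the nuclear genome. In the peak at rank 4, on chromosome 2, 45.0% did. In the Ccr9 peak 0 of 901 such strings were repeated, and 27.3% of its bases were soft-masked, that is, marked as repeat sequence in the assembly. It was the only one of these 4 without a repeated string, and 10 of the 40 peaks at 3100 or above were without one. How repeated reads were treated upstream is not given in the sources used here.

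**Figure D2:**
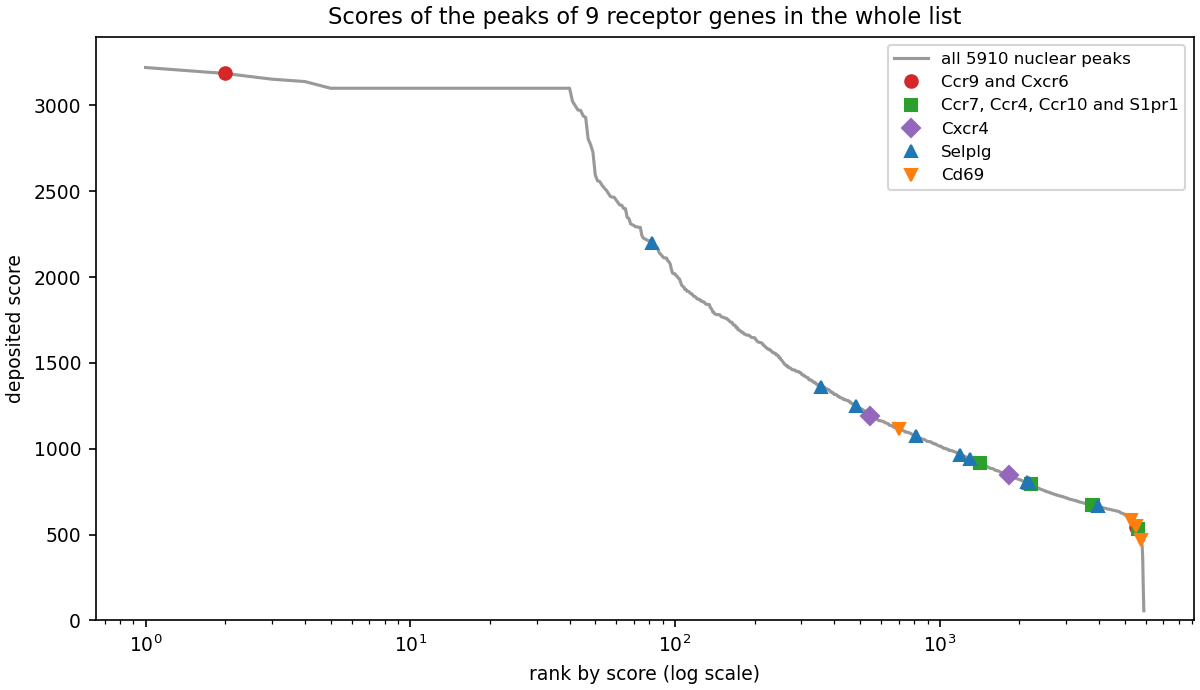
Deposited score against rank by score (log scale) for all 5910 nuclear peaks (grey line), with the 22 peaks of the 9 genes as symbols. The Ccr9 peak stands at rank 2 with 3186, the Selplg start site peak at rank 82 with 2199, and the symbols of Ccr4, Cxcr6 and 3 of the 4 Cd69 peaks lie at rank 5267 or lower.

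A pair of stretches of the Ccr9 peak is shown because they hold its RBPJ, RUNX and E-box matches. All sequences are from the mm10 assembly and run 5′ to 3′, on the strand of the gene, and positions in them are counted from the 5′ end as printed. Capitals mark every match, on either strand, to any of 15 short motifs searched. The RBPJ core was searched as TGGGAA, with GTGGGAA as a longer form that contains it. For RUNX proteins the string was TGTGGT, with TGCGGT as a variant spelling. The string for TCF1 and LEF1, a pair of related factors, was CTTTGA. The string for the ETS family was CCGGAA. The string searched for GATA factors was AGATAA, and that for NFAT, a family of calcium-responsive factors, was TGGAAA. The E-box was searched as CAGCTG, the symmetric form, with CAGGTG as the form of E proteins. The remaining strings were TGANTCA for the factor AP-1, TTCNNNGAA for STAT proteins, GTAAACA for FOXO proteins, CCCCACCC for KLF proteins and 1 NF-kB motif.
Ccr9, chr9:123756453-123756733, plus strand: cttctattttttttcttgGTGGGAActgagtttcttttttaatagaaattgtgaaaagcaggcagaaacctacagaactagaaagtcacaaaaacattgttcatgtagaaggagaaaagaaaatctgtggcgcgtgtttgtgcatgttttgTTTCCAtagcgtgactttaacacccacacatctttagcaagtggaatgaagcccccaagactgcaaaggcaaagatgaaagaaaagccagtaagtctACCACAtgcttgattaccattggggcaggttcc
Ccr9, chr9:123756853-123757013, plus strand: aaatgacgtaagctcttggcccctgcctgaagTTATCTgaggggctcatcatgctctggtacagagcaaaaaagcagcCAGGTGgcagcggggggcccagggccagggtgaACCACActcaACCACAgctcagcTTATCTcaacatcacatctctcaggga
The longer stretch holds GTGGGAA, which contains the RBPJ core TGGGAA, at positions 19 to 25. It also holds ACCACA, the reverse complement of the RUNX motif TGTGGT, at positions 249 to 254, and TTTCCA, the reverse complement of the NFAT motif TGGAAA. Within the shorter stretch an E-box CAGGTG, the kind of site E proteins bind, lies at positions 79 to 84. RUNX matches follow at positions 112 to 117 and 122 to 127, and matches to the GATA motif AGATAA flank them as TTATCT at 33 to 38 and 135 to 140. The whole peak held 1 RBPJ core, 3 RUNX matches, 1 E-box CAGGTG and 4 GATA matches. A match is a description of the letters and does not show that a factor was bound.

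Cxcr6, the receptor gene for CXCL16, which is known to mark tissue-resident T cells, lies next to Ccr9 and inside the gene body of Fyco1 on the other strand. Its own peak, on chromosome 9 from 123811590 to 123812009, lay at the end of the gene, 5.09 kb downstream of a Cxcr6 start. It overlapped the last exon of Cxcr6 outside the coding sequence and scored 546, rank 5527. The peak was at the opposite end of the list from its neighbour in Ccr9, and it had the lowest GC content of the 22, 34.3%, beside a median of 43.9% over all peaks. It held 0 matches to any of the 15 motifs. The Ccr9 intronic peak lay 49.2 kb upstream of Cxcr6.

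Beyond Cxcr6 the same cluster of chemokine receptor genes runs on through Xcr1 and Ccr1. In the window of Ccr1, a receptor gene of myeloid cells, lay 3 peaks between 123927542 and 123933720, with scores of 622, 990 and 959. The Ccr9 peak ranked above all 3 of these. Xcr1 had its nearest peak 50020 bp away, just outside the limit.

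Ccr7 encodes the receptor for CCL19 and CCL21, which guides thymocytes into the medulla. Both of its peaks lay past the end of the gene, on chromosome 11, and the gene body held 0. The nearer, from 99130353 to 99130736, was 24.3 kb downstream of the start site, scored 671 (rank 3775), and had Ccr7 as its nearest protein-coding start. The farther, from 99105454 to 99105760, scored 916 (rank 1421) and lay 16.1 kb from a start of Tns4, nearer than to Ccr7. Of all protein-coding genes, 19.8% had a peak nearer to a start site than Ccr7 did. The stretch shown from the nearer peak holds both spellings of the RUNX motif.
Ccr7, chr11:99130434-99130594, minus strand: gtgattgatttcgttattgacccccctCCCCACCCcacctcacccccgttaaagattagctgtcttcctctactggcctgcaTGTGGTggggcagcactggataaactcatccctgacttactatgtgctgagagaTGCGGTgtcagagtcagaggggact
TGTGGT lies at positions 83 to 88 and TGCGGT at 137 to 142, both on the strand of the gene, and a KLF motif CCCCACCC at positions 28 to 35. It was the only one of the 22 peaks with a KLF match, which 5.14% of all nuclear peaks hold in the 300 bp around their midpoint.

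Cxcr4 encodes the receptor for CXCL12, which acts on the earliest thymocytes and at the pre-receptor stage. It had 2 peaks, both with Cxcr4 as the nearest start. On chromosome 1 from 128591083 to 128591475, the nearer one lay in the intron, 815 bp downstream of the start site, and scored 845 (rank 1830). This peak held 27 CpG dinucleotides, the most of the 22, and its GC content was 57.5%. The farther one, from 128614696 to 128615326, lay 22.4 kb upstream in intergenic sequence and scored 1193 (rank 547). The distal peak thus ranked above the one at the start of the gene. Both are shown in part, to set the peak near the start beside the distal one.
Cxcr4, chr1:128591169-128591409, minus strand: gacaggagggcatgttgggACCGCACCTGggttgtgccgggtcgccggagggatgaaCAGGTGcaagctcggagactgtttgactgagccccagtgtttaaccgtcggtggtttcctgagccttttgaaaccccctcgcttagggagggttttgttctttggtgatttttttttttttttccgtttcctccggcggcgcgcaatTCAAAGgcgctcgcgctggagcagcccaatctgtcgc
Cxcr4, chr1:128614701-128614951, minus strand: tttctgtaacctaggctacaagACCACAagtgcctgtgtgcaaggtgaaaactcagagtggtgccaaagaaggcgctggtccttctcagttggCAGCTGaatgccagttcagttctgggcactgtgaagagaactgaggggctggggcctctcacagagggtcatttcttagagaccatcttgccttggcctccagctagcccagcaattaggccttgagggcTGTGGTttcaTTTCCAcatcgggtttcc
In the intronic stretch an E-box and a RUNX match overlap. ACCGCA, the reverse complement of TGCGGT, spans positions 20 to 25 and CACCTG, the reverse complement of CAGGTG, spans 24 to 29. A further CAGGTG lies at 58 to 63, and a TCF1 and LEF1 motif, TCAAAG as the reverse complement of CTTTGA, at 205 to 210. In the upstream stretch RUNX matches at positions 23 to 28 and 224 to 229 stand on either side of an E-box CAGCTG at 94 to 99. The whole upstream peak held 3 RUNX matches and 0 RBPJ cores, and the nearest core lay 30 bp beyond its edge.

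Ccr4 and Ccr10, receptors known for homing to skin, had only distant peaks. Ccr4, which binds CCL17 and CCL22 and also acts in thymocytes entering the medulla, had 1 peak 44.2 kb downstream of a start site, inside an intron of Glb1. It spanned 114451529 to 114451886 on chromosome 9 and scored 531, rank 5615. Glb1 encodes a lysosomal galactosidase, and although the peak lay within it, the nearest protein-coding start was that of Ccr4. Ccr10 binds CCL27 and CCL28 and is known to place gamma delta T cells in the epidermis. The only peak in its window, on chromosome 11 from 101210577 to 101210854 (score 795, rank 2211), lay 35.1 kb upstream of Ccr10 and over a start site of Ezh1, a histone methyltransferase gene. That start belongs to a transcript that begins inside Ezh1, which spans 101191115 to 101226463 on the minus strand, and the peak also overlapped an Ezh1 coding exon. With 7 protein-coding genes having a start within 50 kb of that peak, position alone does not tie it to Ccr10.

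Selplg encodes PSGL-1, the ligand for P-selectin, through which circulating progenitors are known to enter the thymus. It stood out among the 9 genes by the number of its peaks. Its 9 peaks compared with 1 or more in 31.7%, 2 or more in 9.55% and 4 or more in 1.31% of protein-coding genes, and 22 of the 21938 genes had 9 or more. One of those 22 is Tmem119, whose window takes in the same 9 peaks. A window of 113 kb around Selplg, beside a median of 104 kb over all genes, gave 7.94 peaks per 100 kb, and the other 8 genes ranged from 0.918 to 4.0. Selplg lies on the minus strand of chromosome 5 from 113818536 to 113832644.

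Of its peaks 7 lay within 5 kb of a Selplg start site, between 113824031 and 113834711. They covered 2689 of 10681 bp, or 25.2% of that span. The strongest, from 113832229 to 113832928, was 700 bp wide, scored 2199 (rank 82) and covered the start of transcript Selplg-203 at 113832644. On its upstream side followed peaks with scores of 938 and 799. On its downstream side, inside that transcript and close to the start of Selplg-201 at 113830501, were peaks with scores of 664 and 806. Peaks with scores of 1072 and 966 lay farther into the gene. The 4 peaks less than 1 kb from a start site covered 69.5% of 2691 bp, with gaps of 199, 423 and 199 bp between them. Gaps under 1000 bp, a wider limit than any of these, were found for 311 of 5889 adjacent pairs in the list. The 2 gaps of exactly 199 bp were both at Selplg, and the smallest gap in the list was 1 bp.

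**Figure D3:**
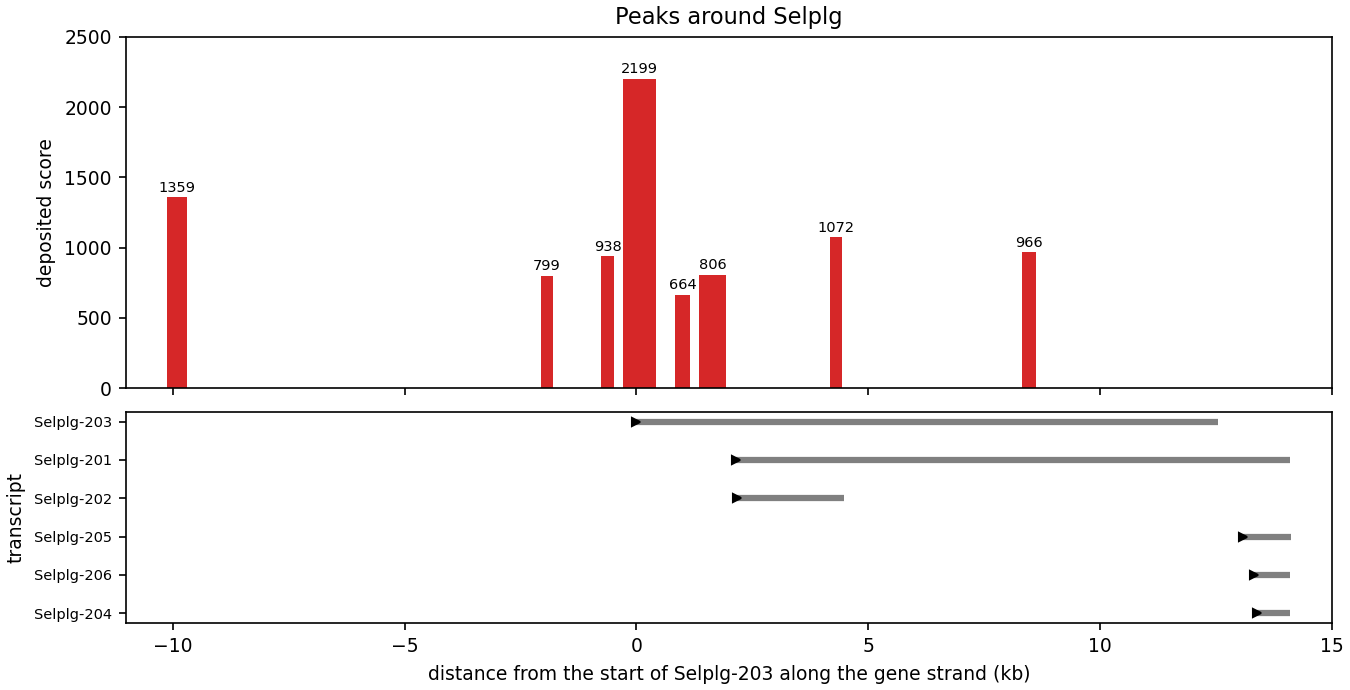
Upper panel, the 8 peaks from 10 kb upstream to 9 kb downstream of the start of transcript Selplg-203, as bars of their true width with the deposited score as height. Lower panel, the 6 annotated Selplg transcripts with their starts as arrowheads. The peak of 2199 covers the start of Selplg-203, and 3 more peaks lie within 1 kb of a start.

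The remaining 2 Selplg peaks lay nearer to a start site of another gene. One, from 113842326 to 113842758, scored 1359 (rank 357) and lay 9.68 kb upstream of Selplg. It overlapped the 3′ end of Coro1c, which encodes a coronin, and the start of the antisense gene Gm17122. The nearest Coro1c start, 4.86 kb away, was that of a transcript that begins inside Coro1c. The other, from 113771969 to 113772174, scored 1246 (rank 484) and lay 331 bp from a start of Sart3, 47.1 kb from Selplg. A start of Iscu also lay within 1 kb of it. Both are among the 4 highest scores of the Selplg window. Repeat content differed along the cluster. In the peak of 938, 25.3% of 32-base strings were repeated in the genome, and in the peak of 966 17.5% were, while the start site peak had 0.299% and 5 of the 9 had 0.

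The part of the start site peak upstream of transcript Selplg-203 is shown because it holds the densest set of matches at this gene.
Selplg, chr5:113832645-113832928, minus strand: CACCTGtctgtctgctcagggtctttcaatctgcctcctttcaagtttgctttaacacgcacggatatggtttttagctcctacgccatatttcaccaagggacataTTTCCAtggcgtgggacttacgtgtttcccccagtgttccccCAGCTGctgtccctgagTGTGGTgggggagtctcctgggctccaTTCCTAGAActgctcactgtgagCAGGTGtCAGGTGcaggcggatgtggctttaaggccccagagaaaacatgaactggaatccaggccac
It holds 4 E-boxes. CACCTG, the reverse complement of CAGGTG, opens the stretch at positions 1 to 6, CAGCTG spans 150 to 155, and CAGGTG stands at 217 to 222 and again at 224 to 229. Between the latter and CAGCTG are a RUNX match TGTGGT at 167 to 172 and a STAT motif TTCNNNGAA at 194 to 202. The whole peak held 5 E-boxes, counting CAGCTG and CAGGTG, 2 RUNX matches and 0 RBPJ cores. The nearest core lay 139 bp beyond the peak. Of the 9 Selplg peaks 2 held a core, the one at Sart3 and the one with a score of 1072 inside the gene.

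S1pr1, the gene of the receptor that mature thymocytes need to leave the thymus, had 1 peak. It lay on chromosome 3 from 115693748 to 115694092, 20980 bp downstream of the start site and beyond the end of the gene, and scored 670 (rank 3806). S1pr1 was its nearest protein-coding start and the only one within 50 kb. No peak lay in the gene body or within 5 kb of its start, and 18.2% of protein-coding genes had a peak nearer to a start site.
S1pr1, chr3:115693750-115694000, minus strand: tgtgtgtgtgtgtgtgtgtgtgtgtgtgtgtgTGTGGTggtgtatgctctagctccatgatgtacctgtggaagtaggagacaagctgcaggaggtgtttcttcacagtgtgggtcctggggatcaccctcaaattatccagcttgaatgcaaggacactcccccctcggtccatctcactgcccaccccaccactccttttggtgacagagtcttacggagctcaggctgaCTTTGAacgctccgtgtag
The stretch is shown because its RUNX match, TGTGGT at positions 33 to 38, is the end of a run of alternating t and g. That run is a simple repeat, and 58.0% of the peak was soft-masked, the second highest share of the 22. Of its 32-base strings 10.5% were repeated elsewhere. A TCF1 and LEF1 motif CTTTGA lies at 233 to 238, outside the run.

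Cd69, whose product opposes S1PR1 at the cell surface, had 4 peaks, and all 4 had Cd69 as their nearest protein-coding start. That number was reached by 1.31% of protein-coding genes. On chromosome 6 from 129284401 to 129284856, 8.96 kb upstream, lay the highest of them, with a score of 1112 (rank 705). A peak from 129275147 to 129275420 covered a start site and scored 585 (rank 5267). Another followed 1.42 kb downstream, from 129273421 to 129273945, at 550 (rank 5507). The last, from 129232685 to 129233098, lay 42.3 kb downstream inside the noncoding RNA gene 2310001H17Rik and scored 468 (rank 5781). Thus the upstream peak ranked in the upper 11.9% of the list, while the peak over the start site and the other 2 ranked 5267 or lower.

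The upstream peak of Cd69 was the only one of the 22 with an ETS match (4.55%), beside 7.39% of all nuclear peaks. It also held 1 RUNX match, 1 match to the TCF1 and LEF1 motif and 2 E-boxes, 1 of each spelling, and 0 RBPJ cores. The peak over the Cd69 start site held 0 matches to any of the 15 motifs.

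**Figure D4:**
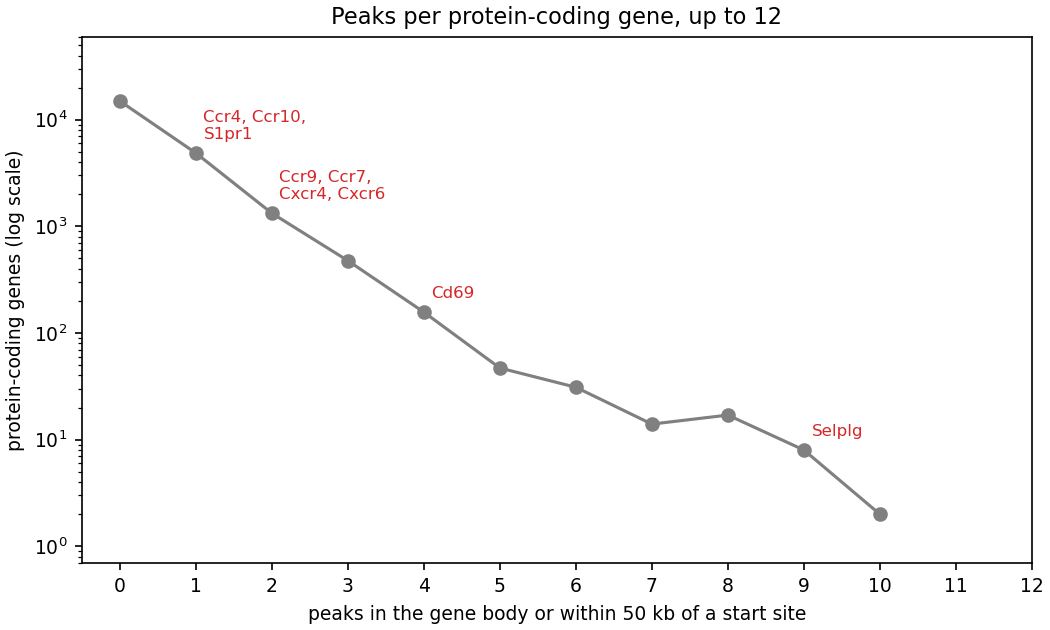
Number of protein-coding genes (log scale) against the number of peaks in the gene body or within 50 kb of a start site, with the 9 receptor genes named at their counts. Of these genes 14973 had 0 peaks and 22 had 9 or more, among them Selplg with 9, and 12 genes with 25 to 43 peaks are not drawn.

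Across the 22 peaks the median score was 826, beside 718 over all nuclear peaks, and 14 stood at or above the median of the list. Their median width was 371 bp, beside 370 bp, and their median GC content 48.3%, beside 43.9%. The share under 20% soft-masked was 59.1%, beside 60.2%. No 32-base string was repeated in 14 of the 22, and 3 had over 5% repeated, namely the S1pr1 peak and 2 peaks of Selplg. These figures describe the peaks that the windows happened to hold.

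The RBPJ core TGGGAA was found in 3 of the 22 peaks, or 13.6%, beside 29.5% of all nuclear peaks. Those with the core were the Ccr9 peak and 2 of Selplg. In the 300 bp centred on the midpoint of each peak, a window of equal length that runs past the edges of narrower peaks, 2 of 22 held it, beside 25.0%. The form GTGGGAA was found in the Ccr9 peak alone, beside 7.68% of all peaks. With 250 bp added on either side, 14 of the 22 held a core, beside 55.9% of all peaks so extended. The distance from peak edge to the nearest core was 17 bp at the Ezh1 peak near Ccr10, 63 bp at the nearer Ccr7 peak, 93 bp at the upstream Cd69 peak and 197 bp at S1pr1. At the Ccr4 peak it was 1397 bp and at the Cxcr6 peak 1730 bp.

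RUNX and E-box matches occurred in more of the 22 peaks than RBPJ cores did. RUNX in either spelling, TGTGGT or TGCGGT, was found in 12 peaks (54.5%), beside 30.5% of all peaks, and an E-box, CAGCTG or CAGGTG, in 11, beside 33.4%. Both together were found in 8 peaks (36.4%), beside 12.4%. In that 300 bp window TGTGGT was present in 9 peaks (40.9%), beside 23.2%. AGATAA, the GATA motif, was present in 6 (27.3%), beside 17.7%, and CTTTGA in 3 (13.6%), beside 21.6%. The genes were chosen with results known and 9 of the peaks come from 1 gene, so these shares are descriptions of 22 intervals and carry no test. The NF-kB motif was in 0 of the 22 and, in the 300 bp window, in 0.102% of all peaks.

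**Figure D5:**
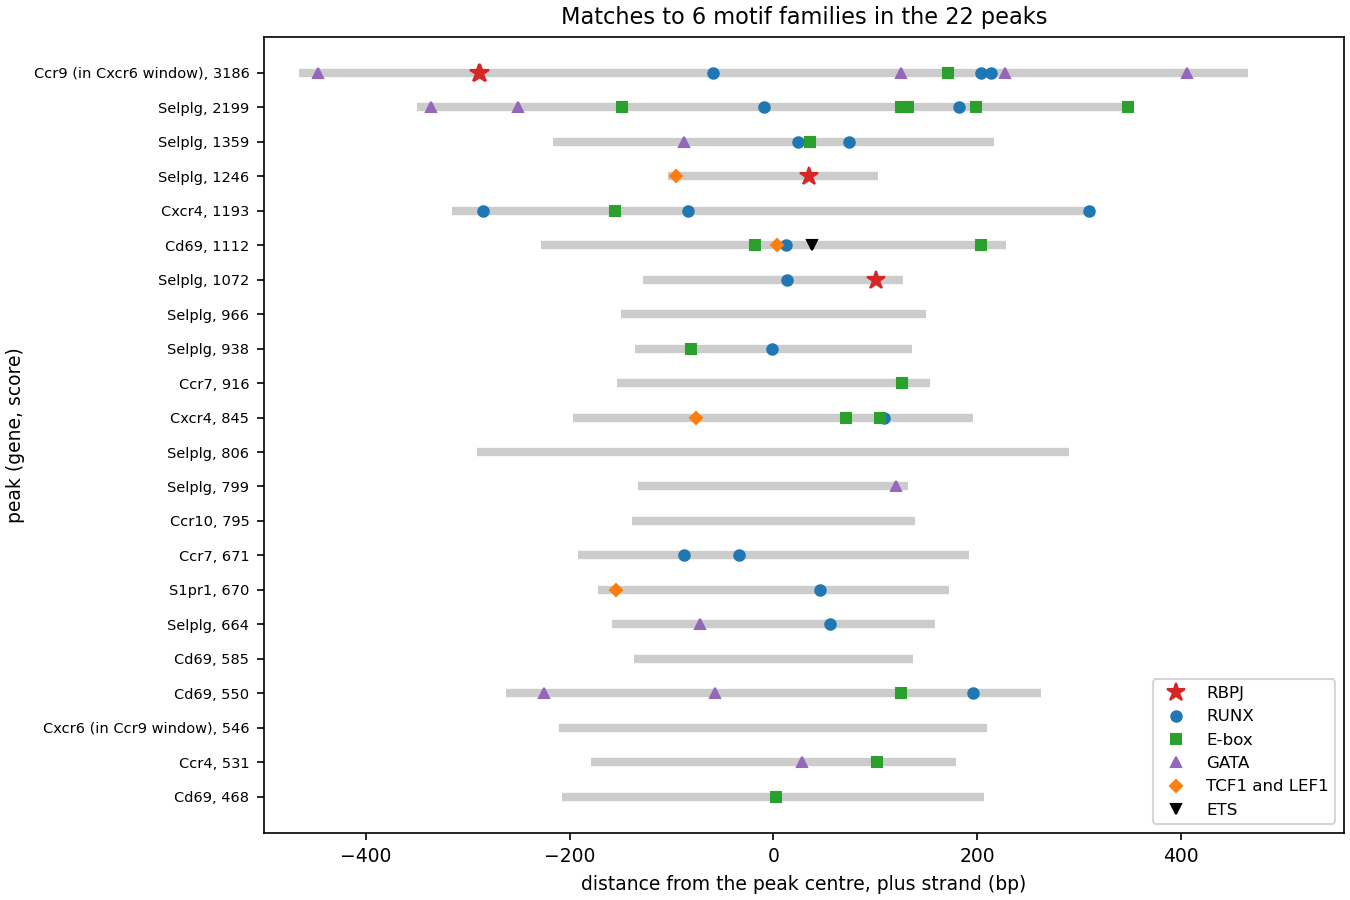
Positions of matches to 6 motif families in each of the 22 peaks, ordered by deposited score, as distance in bp from the peak centre on the plus strand, with grey bars for peak widths. Matches to at least 1 family are present in 17 peaks and absent in 5, and the RBPJ stars stand in only 3 rows.

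Other genes of homing and egress were counted from 6 lists, which together held 68 genes. A peak lay in the gene body or within 50 kb of a start site for 23 of them (33.8%), beside 31.7% of all protein-coding genes, and within 5 kb for 7 (10.3%), beside 8.81%. Both shares are near the background. Among 18 other chemokine receptor genes 6 had a peak (33.3%). Ccr8, which encodes a receptor of skin and regulatory T cells, had a peak over its start site on chromosome 9 (120092039 to 120092585, score 1029), and Cx3cr1, a receptor gene of monocytes and cytotoxic lymphocytes, had 4 peaks in its window. The nearest of these was 4.49 kb from a Cx3cr1 start, and the one with the highest score was the Ccr8 peak, 22.2 kb away. Cxcr5, a receptor of B cell follicles, had a peak 7.3 kb downstream (score 644), and Cxcr3 had one 33.0 kb upstream that was nearer to Gm4779 (735). Ccr1 and its neighbour Ccr1l1 made up the 6. Ccr6, a marker of interleukin-17 producing cells, had its nearest peak 127 kb away.

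Of 11 genes for ligands of the 9 receptors, 5 had a peak (45.5%), beside 31.7% of all protein-coding genes. None was within 5 kb of a start, beside 8.81%. These lists are small, so nothing is read from differences between them. Ccl25, the ligand gene of Ccr9, had a peak 14.8 kb away that lay nearer to Elavl1 (score 1000), and Cxcl12 had its nearest 317 kb away. The remaining 4 were Sele (1281), Selp (833), Ccl27a (674) and Ccl28 (379). Of 10 genes of sphingosine 1-phosphate receptors and metabolism 1 had a peak, Sphk2, and that peak lay at the promoter of Dbp (1134). S1pr4, also expressed in lymphocytes, had its nearest peak 272 kb away. Among adhesion receptor genes, the integrin genes Itga1 (885) and Itgal (671) and the hyaluronan receptor gene Cd44 (657) had a peak, each more than 10 kb from a start.

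Among 8 genes for enzymes that modify selectin ligands, 2 had a peak (25.0%), beside 31.7% of all protein-coding genes. Tpst2, a tyrosine sulfotransferase of the kind that modifies PSGL-1, had one 856 bp from a start site (886), and B4galt1 had 3, the one with the highest score 14.3 kb from a start (966). Fut7, which adds the fucose that selectins need, had its nearest peak 76.5 kb away. Of 12 signalling genes 5 had a peak (41.7%). They were Rgs2, which encodes a brake on G protein signalling, with a peak over its start (1229), Dock2, which drives lymphocyte migration, with a peak 97 bp from a start (1177), Coro1a with a peak over a start and a higher score farther off (687), Rap1b (657) and Rgs16 (567). The Rgs16 peak lay nearer to the start of another gene.

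Genes that mark cell types were read by the same rule, as a check of what a window of 50 kb can say. Of 6 genes listed for gamma delta T cells 5 had a peak (83.3%), beside 31.7% of all protein-coding genes. The CD3 genes among them serve all T cells, and Il2rb is not confined to gamma delta cells. Il2rb had a peak 599 bp from a start (742), and Tcrg-C1 had one 30.9 kb away (844). The peak of Cd3e (1042) lay nearer to Mpzl2, and the 1 that Cd3g and Cd3d share (469) lay nearer to Ube4a. Trdc had its nearest peak 81.8 kb away. Of 5 alpha beta thymocyte genes 1 did (Cd4, 1313), a lower share than that background. Of 3 myeloid genes 1 did (Csf1r, 679) and of 3 thymic epithelial genes 1 (Epcam, 656), or 33.3% each, near the background. The B cell gene Cd79a also had 3, of which the one with the highest score (1458) lay beside Rps19. A peak in the window of a marker therefore did not show which cells the chromatin came from.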

How the data were processed

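The series has 2 samples, a Notch1 ChIP-seq library and an input, and 1 of them has a file that was used. Per the submitters' processing notes, Bowtie 1.0.0, SAMtools 0.1.18 and build mm10 were used. Names in the deposited peak list start with MACS, and its version, its settings and the handling of duplicates are unstated there. The labels' protocols state fixation with 0.5% formaldehyde for 5 min and 18 cycles of PCR, which can stack duplicate reads. Each peak carries a deposited score, the authors' value. Intervals are given from 1, and 3 mitochondrial peaks were left out.

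Overlap of at least 1 bp was counted against GENCODE M21, with bases from the GRCm38.p6 assembly, whose chromosome lengths no peak exceeded. Python 3.11.15, pandas 2.3.3, pysam 0.24.0 and samtools 1.23.1 were used. Motifs were 15 fixed strings searched on both strands. Window and motif searches were tested on simulated data. A promoter is 1 kb on either side of a protein-coding start. Members and lists were chosen with earlier results of these data known. Named genes were the 9 members, the gene nearest to or overlapped by each of their peaks, up to 6 genes with a peak per list by score, and any marker with a peak. Genes named for a distant nearest peak were chosen after values were seen. Alternatives changed the window, overlap, score, repeat content, start sites, annotation and motif setting. Some results of the lists are not reported here.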

Additional observations from a re-analysis of the deposited data

How the results depend on the processing

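Under the main rule 9 of 9 genes had a peak, with 22 peaks in all. Windows of 5 kb and of 20 kb, each with the gene body, left 5 genes with 12 and 14 peaks, and the gene body alone left 5 genes with 10 peaks. In each case the 5 were Ccr9, Cxcr6, Cxcr4, Selplg and Cd69. Peaks under 20% soft-masked gave 4 genes and 13 peaks and dropped Ccr9, whose peak is 27.3% soft-masked. At or above the median score 14 peaks remained, and 10 in the upper quartile. A window of 100 kb, peak midpoints, coding start sites, nearest start sites and RefSeq genes kept both counts within 1.5 times. The RBPJ core was in 3 of the 22 peaks, in 1 in the 200 bp around the midpoint, in 14 with 250 bp on either side, and in 1 as GTGGGAA. No paired analysis was possible because 1 library has a file. Without read depth or an input file, no peak could be set against background reads.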
